A study of Mus musculus with 6 samples.

Results

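Laminins and integrins form the chief link between a cell and its basement membrane, and their genes were taken here by symbol from a table of 24516 genes. The rule matched 37 genes, made up of 11 laminin chains and 26 integrin subunits (18 alpha and 8 beta). Of these, 29 had enough counts to be tested, 9 laminin chains and 20 integrin subunits (14 alpha and 6 beta). Polyadenylated RNA was sequenced from a mouse embryonic fibroblast line in which 1 μg/mL doxycycline turns on Mef2c, Gata4 and Tbx5 (MGT), a trio of cardiac transcription factors that drives fibroblasts towards a cardiomyocyte-like state. The line also carries an eGFP reporter named for Myh6, a cardiac myosin gene, and all libraries came from this 1 line after MGT induction. The 3 groups differed in the siRNA given the day before doxycycline: a control (siControl), one targeting Junb (siJunb), whose product is an AP-1 transcription factor subunit, or one targeting H1f0 (siH1f0), the gene of linker histone H1.0. Each group had 2 libraries, which the labels call biological replicates. The labels place the harvest at day 1 after induction, while the series description gives day 3 and a GFP sort, and the sources used here do not settle which applies.

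A laminin is a cross-shaped trimer of 1 alpha, 1 beta and 1 gamma chain that is secreted and polymerises into the basement membrane. An integrin is a membrane-spanning pair of 1 alpha and 1 beta subunit that binds matrix outside the cell and, through talin and kindlin, actin inside it. The alpha subunit sets most of the ligand choice: alpha 3, 6 and 7 with beta 1 are laminin receptors, while alpha 5 with beta 1 and the alpha v pairs bind fibronectin, vitronectin and other proteins with an RGD motif. Fibroblasts sit in interstitial matrix, whereas each cardiomyocyte is wrapped in a basement membrane held by laminin receptors.

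Library totals ran from 48690447 to 85979630 counts. In CPM, counts scaled to the library total, Junb read 39.5 and 35.6 (siControl) against 10.5 and 8.73 (siJunb), and H1f0 read 808 and 741 (siControl) against 52.3 and 55.3 (siH1f0), so each siRNA target was low in its own group. H1f0 was also lower in siJunb than in siControl, with a log2 difference of -0.23 ± 0.05 (SE, edgeR adjusted p = 0.0210). Of 8 fibroblast markers, 7 were tested, and their summed level was 4719 to 5033 CPM, although Thy1 had at most 1 count in any library and Col3a1 only 64 to 107 counts. Epithelial markers summed to 0.0303 to 0.101 CPM, with Krt5, Krt14, Krt8 and Krt18 listed at 0, and endothelial markers to 0.157 to 0.438 CPM. Markers of cardiomyocytes summed to 152 to 168 CPM in siControl, 124 to 125 CPM in siJunb and 172 to 181 CPM in siH1f0. The precursor ribosomal transcript Rn45s took 1.90% of counts in siControl 1 against 0.308% to 0.655% in the other libraries. In bulk RNA, fewer cells of a type and less RNA per cell cannot be told apart.

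Levels are compared between genes per length, as length-scaled values (TPM: counts divided by the deposited gene length and scaled to the same total in each library). Among laminin chains the highest means over the 6 libraries were those of the beta chain Lamb2 (460 TPM), the gamma chain Lamc1 (193 TPM), the beta chain Lamb1 (132 TPM) and the alpha chains Lama5 (65.4 TPM) and Lama4 (44.6 TPM). Chains of these kinds make up the laminins of many mesenchymal and vascular cells. Lama2, the alpha chain of the main muscle laminin, was at 1.65 TPM. Lama3 (0.360 TPM) and Lamb3 (0.0993 TPM) were lower still.

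Among integrin subunits the common beta partner Itgb1 led with 1072 TPM. The fibronectin receptor subunit Itga5 followed with 252 TPM, the RGD receptor subunit Itgav with 151 TPM and the laminin receptor subunit Itga7, best known in muscle, with 97.5 TPM. Next came Itgb5, a partner of alpha v, at 59.4 TPM, and Itga3, a laminin receptor subunit, at 49.8 TPM. Itgb8 (8.90 TPM), Itga6 (8.04 TPM) and the collagen receptor subunit Itga1 (4.58 TPM) were lower. Across the 29 tested genes the mean level spanned 0.0719 to 1072 TPM, and 11 of them were under 1 TPM. Those 11 include the leukocyte subunits Itgax, Itgb2, Itgb7, Itgae and Itgad and the hemidesmosome subunit Itgb4.

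**Figure D1:**
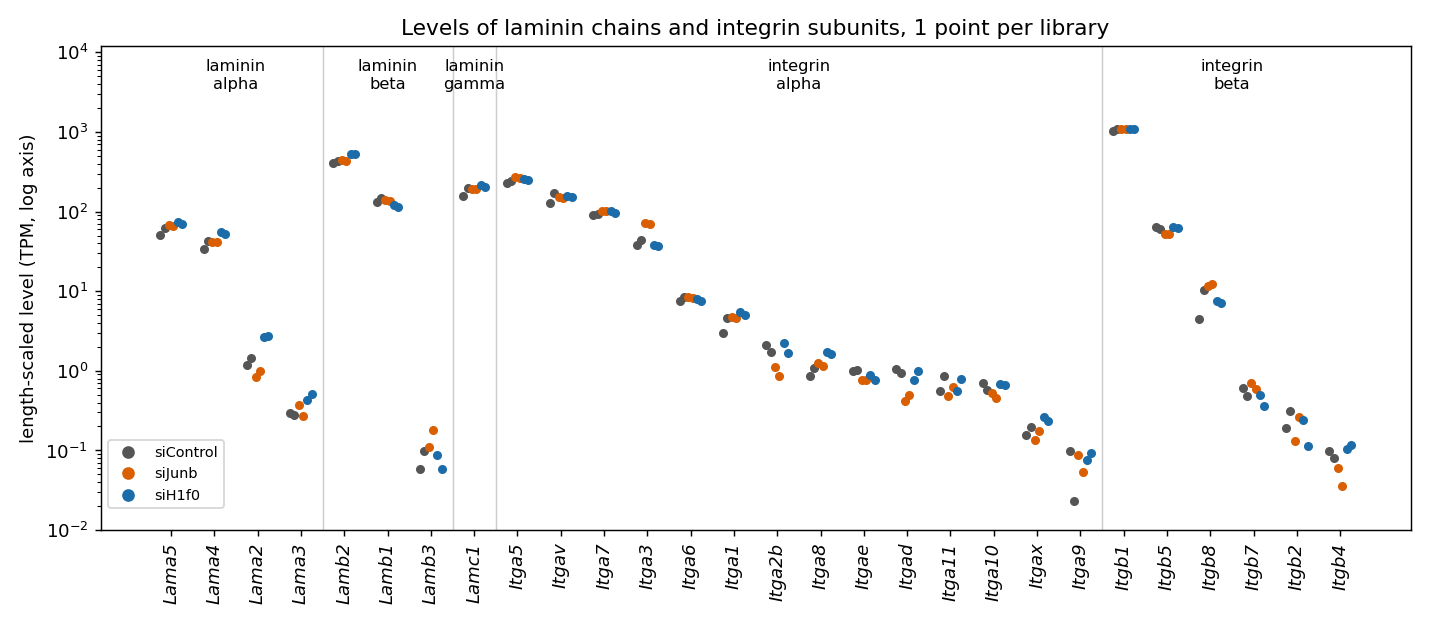
Length-scaled level (TPM, log axis) of tested laminin chains and integrin subunits, with 1 point per library coloured by group and genes grouped by class. Itgb1 lies at the top near 1072 TPM, Itga3 stands higher in both siJunb libraries, and Lama2 stands higher in both siH1f0 libraries.

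The remaining 8 members did not pass the count filter and were not tested. They were the laminin chains Lama1 (2 to 18 counts per library) and Lamc3 (0 to 2 counts), and the integrin subunits Itga2, Itga4, Itgal, Itgam, Itgb3 and Itgb6, which had between 0 and 10 counts per library. For a gene with 0 counts, 3 counts is the upper limit that counting allows, which is 0.0349 to 0.0616 CPM in these libraries and covers counting error only.

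The first comparison asked what differed in siH1f0 relative to siControl. Most of the calls were laminin chains: 5 of 9 were called, 4 higher and 1 lower, against 1 of 20 integrin subunits. In all 6 of 29 members were called with edgeR at an adjusted p under 0.05 (5 higher, 1 lower), where 6.55% of all tested genes were called, 2.27% higher and 4.27% lower. The median log2 change was 0.31 over the laminin chains and 0.00 over all genes tested. Whether laminins and integrins differed from each other in this respect was not tested.

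Lama2 had the largest change among these. It read 4.47 and 5.24 CPM (siControl), 3.08 and 3.64 CPM (siJunb) and 9.58 and 9.92 CPM (siH1f0). Both siH1f0 libraries were above every other library, and both siJunb libraries below every siControl library. The log2 change in siH1f0 was 1.00 ± 0.12 (SE; edgeR adjusted p = 0.00275), a 1.99-fold rise, from 384 and 346 counts in the siControl libraries to 569 and 652 counts in the siH1f0 libraries. The gene (Entrez 16773) lies on chr10:26981285-27617191 (GRCm38.p6), and 3.86% of its exon bases overlap an antisense gene, Gm48084. The strand setting of the counting is not given in the sources used here, so reads of such pairs cannot be told apart. Cardiomyocyte marker sums were also highest in siH1f0 and lowest in siJunb, as given above. Tnnt2 was the largest part (mean 102 CPM), but it read 106 and 94.0 CPM (siControl), 97.8 and 100 (siJunb) and 103 and 110 (siH1f0). Actc1 read 22.4 and 19.6 CPM (siControl), 3.71 and 3.94 (siJunb) and 18.7 and 20.3 (siH1f0), with no rise in siH1f0. Tnni3 read 5.16 and 5.62 CPM (siControl), 2.74 and 2.81 (siJunb) and 8.07 and 9.34 (siH1f0). Of 7 cardiomyocyte markers tested, 1 was called higher in siH1f0 and 3 lower in siJunb against siControl (edgeR). Over all tested genes 6.55% and 16.5% were called. The part of cardiomyocyte markers in the Lama2 difference was not tested.

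The abundant alpha chains also rose in siH1f0. Lama4 (chr10:38965515-39110188), an alpha chain of endothelial and mesenchymal laminins, read 78.5 and 96.0 CPM (siControl), 94.8 and 95.4 CPM (siJunb) and 122 and 120 CPM (siH1f0). Its log2 change was 0.46 ± 0.09 (SE; edgeR adjusted p = 0.0206). Lama5 (chr2:180176373-180225904), a widely expressed alpha chain of basement membranes, read 225 and 262 CPM (siControl), 292 and 286 CPM (siJunb) and 315 and 294 CPM (siH1f0). For Lama5 the log2 change in siH1f0 was 0.31 ± 0.08 (SE; edgeR adjusted p = 0.0469). In both genes siControl 1 was the lowest library, and neither siH1f0 library overlapped siControl.

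The 2 main beta chains went in opposite directions. Lamb2 (chr9:108479847-108490530), a beta chain found in basement membranes of vessels and at neuromuscular junctions, read 884 and 896 CPM (siControl), 926 and 904 CPM (siJunb) and 1113 and 1100 CPM (siH1f0). It rose in siH1f0 by 0.30 ± 0.04 on the log2 scale (SE; edgeR adjusted p = 0.00530). Lamb1 (chr12:31265146-31329644), the widely expressed beta chain, read 298 and 315 CPM (siControl), 300 and 297 CPM (siJunb) and 255 and 250 CPM (siH1f0). It fell by 0.30 ± 0.05 on the log2 scale (SE; edgeR adjusted p = 0.0103). In TPM, the ratio of Lamb2 to Lamb1 was 3.05 and 2.92 in siControl, 3.18 and 3.12 in siJunb, and 4.49 and 4.52 in siH1f0. Lamb1 thus made up 25.1% ± 0.566 of summed beta chain TPM in siControl, 24.1% ± 0.221 in siJunb and 18.2% ± 0.0700 in siH1f0 (SD, n = 2 each).

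Itga8 (chr2:12106632-12301985), an RGD-binding subunit that pairs with beta 1, was the integrin called in siH1f0. It read 1.93 and 2.32 CPM (siControl), 2.77 and 2.51 CPM (siJunb) and 3.69 and 3.53 CPM (siH1f0). The log2 change was 0.76 ± 0.15 (SE; edgeR adjusted p = 0.0249), and 5.05% of its exon bases overlap the antisense gene E030013I19Rik. Among these 6 calls, Lama2 held when any 1 library was left out (log2 0.87 to 1.12, adjusted p up to 0.0424). Lamb2 lost its call when either siH1f0 library was left out. Lama4, Lama5, Lamb1 and Itga8 lost theirs when any 1 siJunb or siH1f0 library was left out or with only the 4 libraries compared. Lama5 also lost its call with a filter at a mean of 5 CPM and with a replicate block.

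The second comparison asked what differed in siJunb relative to siControl, the same control libraries as above. Here the clearest change was that of a single integrin alpha subunit, Itga3, and the laminin chains called included Lama5 and Lama2. Of 29 members 9 were called with edgeR, 5 higher and 4 lower, where 16.5% of all tested genes were called, 8.63% higher and 7.82% lower. By class, 3 of 9 laminin chains (2 higher, 1 lower) and 6 of 20 integrin subunits (3 higher, 3 lower) were called. The median log2 change was 0.11 over the members and 0.00 over all genes tested.

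Itga3 (Entrez 16400, chr11:95044475-95076844) read 77.2 and 85.3 CPM (siControl), 143 and 137 CPM (siJunb) and 74.7 and 73.3 CPM (siH1f0). Both siJunb libraries stood above the other 4. The log2 change in siJunb was 0.82 ± 0.06 (SE; edgeR adjusted p = 0.000173), a 1.77-fold rise, and its share of summed integrin alpha TPM was 7.64% ± 0.175 in siControl, 11.7% ± 0.138 in siJunb and 6.69% ± 0.0329 in siH1f0 (SD, n = 2 each). The other alpha subunits called higher moved less. Itga5 (chr15:103344286-103366791) read 396 and 397 CPM (siControl), 453 and 444 CPM (siJunb) and 428 and 416 CPM (siH1f0), and the siJunb log2 change was 0.21 ± 0.04 (SE, edgeR adjusted p = 0.0144). Itga7 (chr10:128933421-128958286) read 146 and 140 CPM (siControl), 160 and 157 CPM (siJunb) and 158 and 149.5 CPM (siH1f0), and the siJunb log2 change was 0.18 ± 0.05 (SE, edgeR adjusted p = 0.0423). For both genes the siJunb libraries lay above the siControl libraries.

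Among laminin alpha chains, Lama5 rose by 0.28 ± 0.08 on the log2 scale (SE; edgeR adjusted p = 0.0353), and Lama2 fell by 0.50 ± 0.13 (adjusted p = 0.0381). Their values in every library are given above, and neither gene overlapped between siJunb and siControl. Lama3 read 1.17 and 1.08 CPM (siControl) and 1.46 and 1.05 CPM (siJunb) and was not called, and Lamb3 had 6 to 14 counts in any library.

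The lower calls among integrins were Itgb5 and a pair of low-count alpha subunits. Itgb5 (chr16:33829665-33949338) read 81.7 and 73.2 CPM (siControl), 65.3 and 64.8 CPM (siJunb) and 77.4 and 77.0 CPM (siH1f0), and the siJunb log2 change was -0.22 ± 0.06 (SE, edgeR adjusted p = 0.0387). Itga2b (chr11:102453297-102469883), the alpha subunit of the platelet fibrinogen receptor, read 2.78 and 2.18 CPM (siControl), 1.44 and 1.11 CPM (siJunb) and 2.88 and 2.14 CPM (siH1f0), and the siJunb log2 change was -0.92 ± 0.23 (SE, edgeR adjusted p = 0.0273). Itgad (chr7:128173933-128205504), a leukocyte subunit, read 1.61 and 1.36 CPM (siControl), 0.626 and 0.739 CPM (siJunb) and 1.11 and 1.49 CPM (siH1f0), and the siJunb log2 change was -1.10 ± 0.25 (SE, edgeR adjusted p = 0.0200). In all 3 genes the siJunb libraries were the lowest of the 6.

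Itga2b and Itgad were read at 36 to 239 counts per library, and some markers of their usual cell types had counts in that range. The leukocyte markers Cd68 and Lyz2 had 41 to 156 and 61 to 156 counts, and the megakaryocyte marker Gp1bb 69 to 217. Of 4 leukocyte markers tested, 1 was called higher and 0 lower in siJunb (edgeR), where 16.5% of all tested genes were called. Leukocyte markers summed to 2.65 to 3.71 CPM in siControl, 2.598 to 3.14 CPM in siJunb and 3.27 to 3.86 CPM in siH1f0, with Ptprc, the pan-leukocyte antigen, at 0 in all 6. Megakaryocyte markers summed to 1.89 to 2.52 CPM in siControl, 1.499 to 1.72 CPM in siJunb and 1.22 to 1.31 CPM in siH1f0, with 4 of 5 at no more than 10 counts. Itgad shares 8.60% of its exon bases with 4931431B13Rik, 2.26% with Gm39091 and 1.55% with Cox6a2, all on the opposite strand. It also shares 7.32% with the pseudogene Gm17831, on the same strand. The part of other cell types or of these overlaps in the differences was not tested.

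Among the 9 calls for siJunb, Itga3 held when any 1 library was left out (log2 0.74 to 0.90, adjusted p up to 0.00754). Itga2b and Itgad were lost without either siJunb library (up to 0.185 and 0.165), and Lama5, Lama2, Itga5, Itga7 and Itgb5 when any 1 siJunb or siH1f0 library was left out (up to 0.210, 0.257, 0.168, 0.276 and 0.237) or with only the 4 libraries compared. Lama2 was also lost with limma-voom, and Itga7 with total counts only or a filter at a mean of 5 CPM. The replicate block ended the calls for Lama5, Itga7 and Itgb5.

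**Figure D2:**
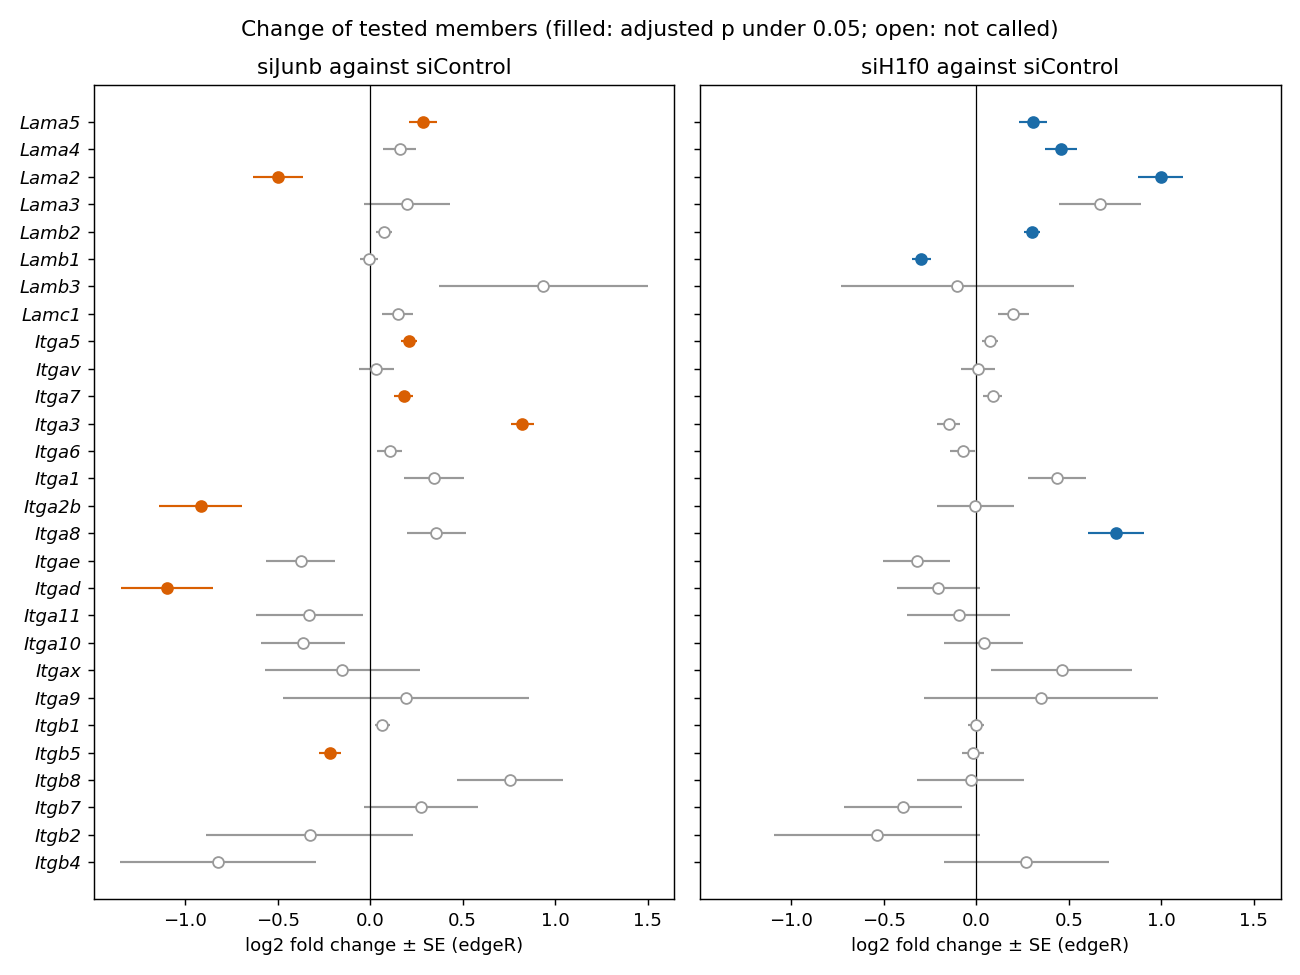
Log2 fold change with its SE (edgeR) of tested members in siJunb and in siH1f0 against the shared siControl libraries, filled where the adjusted p was under 0.05. For siJunb, Itga3 is filled at 0.82, and for siH1f0, Lama2 is filled furthest right at 1.00.

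The third comparison set siH1f0 against siJunb directly, which is the test of whether the 2 knockdowns differed in their effect, since siControl cancels. It uses the same knockdown libraries as the comparisons above. Of 29 members 10 were called with edgeR, 6 higher and 4 lower in siH1f0, where 25.9% of all tested genes were called, 12.2% higher and 13.8% lower. Those called were 5 of 9 laminin chains (3 higher, 2 lower) and 5 of 20 integrin subunits (3 higher, 2 lower), with a median log2 difference of 0.05 over the members and 0.00 over all genes.

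Lama2 and Itga3 differed most firmly. Lama2 was 2.82-fold higher in siH1f0 than in siJunb (log2 1.49 ± 0.13, SE; edgeR adjusted p = 0.000141), and Itga3 was lower (log2 -0.97 ± 0.06, SE; adjusted p = 3.18e-05). Both calls held without any 1 library. Lamb1 (-0.29) and Itga5 (-0.14) were also lower in siH1f0 on the log2 scale, with edgeR adjusted p = 0.00329 and 0.0493. Itga2b (0.91), Itgad (0.89), Lama4 (0.30), Lamb2 (0.22) and Itgb5 (0.20) were higher, with edgeR adjusted p = 0.0201, 0.0332, 0.0373, 0.00579 and 0.0384. Lama5, called higher in both knockdowns against siControl, was not called between them. Nor were Itga7, called against siControl only in siJunb, and Itga8, called only in siH1f0 (edgeR adjusted p = 0.212 and 0.0908). Without 1 siJunb or siH1f0 library the calls for the genes after the first pair were lost in at least 1 case, with adjusted p up to 0.0579 for Lamb1, 0.101 for Lamb2, 0.180 for Lama4, 0.149 for Itga2b, 0.218 for Itgad, 0.212 for Itgb5 and 0.340 for Itga5. Itgad was also lost with limma-voom, and Itga5 with DESeq2, with scaling by RLE or by total counts, and with the filter set at a mean of 5 CPM or dropped. The replicate block ended the calls for Itga5 and Itgb5.

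**Figure D3:**
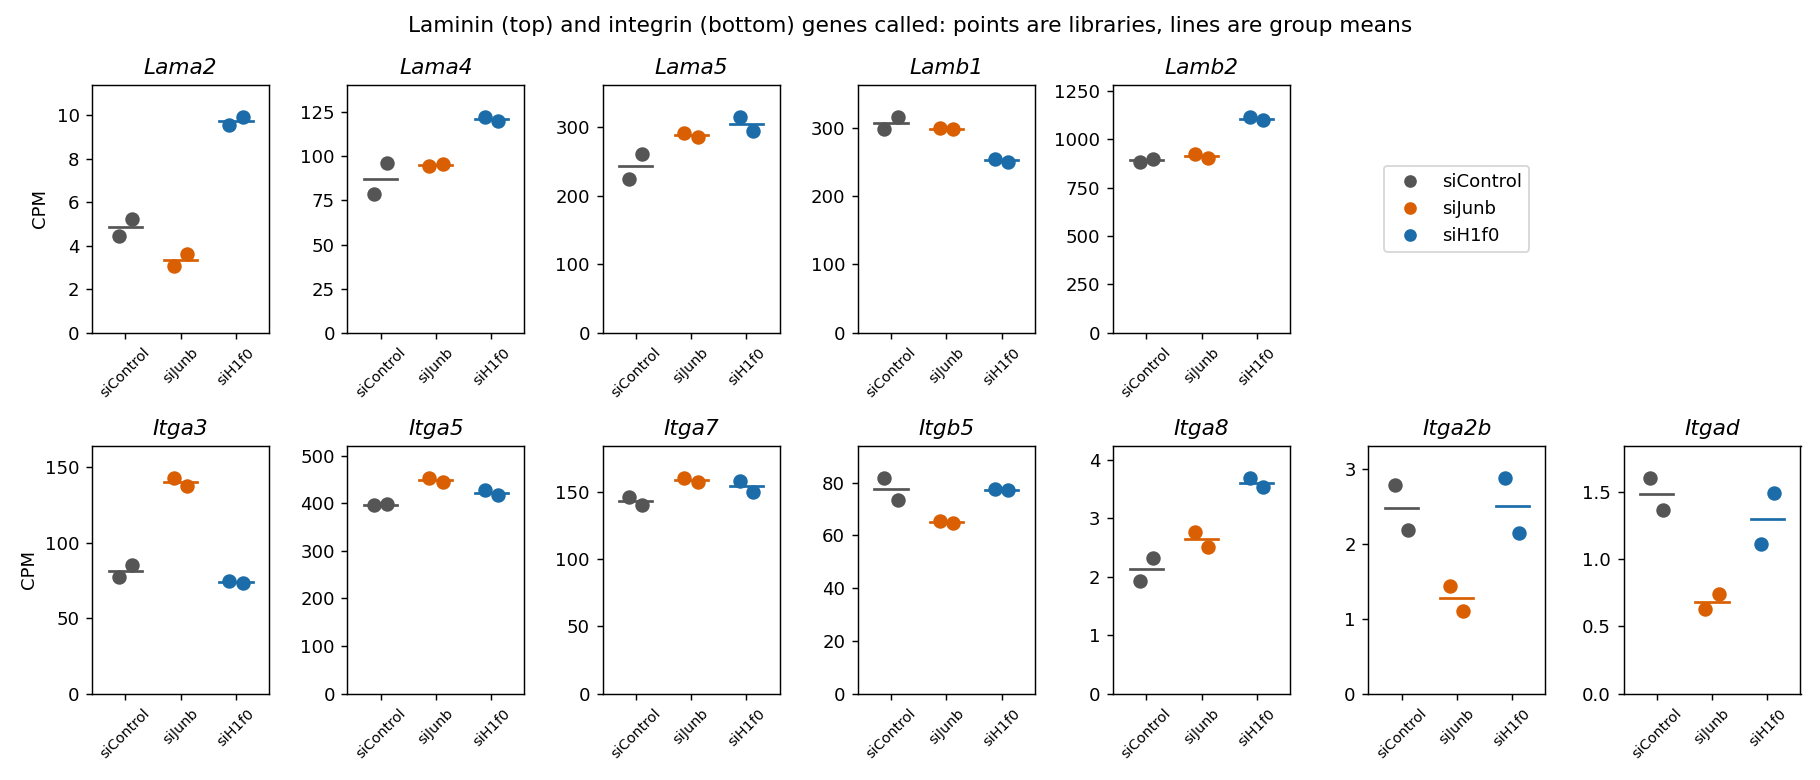
CPM in every library (points) with the group mean (line) for 5 laminin and 7 integrin genes called in at least 1 comparison, each axis starting at 0. Lama2 is near 9.58 to 9.92 CPM in siH1f0 and at most 5.24 CPM elsewhere, and Itga3 is 137 to 143 CPM in siJunb and 73.3 to 85.3 CPM elsewhere.

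The other 16 tested members were called in none of the comparisons, at mean levels of 0.155 to 1687 CPM. They include the most abundant member, Itgb1, which read 1643 and 1698 CPM (siControl), 1703 and 1711 CPM (siJunb) and 1680 and 1686 CPM (siH1f0). Its log2 change was 0.07 ± 0.04 in siJunb and -0.00355 ± 0.0427 in siH1f0 (SE). Lamc1, the common gamma chain, read 464 and 558 CPM (siControl), 555 and 550 CPM (siJunb) and 612 and 573 CPM (siH1f0), and siControl 1 was the lowest library. Itgav read 353 and 443 CPM (siControl), 401 and 393 CPM (siJunb) and 406 and 403 CPM (siH1f0), so the siControl pair spanned all the others.

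Itgb8, which with alpha v activates latent TGF-beta, read 5.36 and 11.8 CPM (siControl), 13.5 and 14.5 CPM (siJunb) and 8.66 and 8.14 CPM (siH1f0). Its log2 change in siJunb was 0.76 ± 0.28 (SE; edgeR adjusted p = 0.106), with the siControl libraries far apart. Itga6 read 17.8 and 18.5 CPM (siControl), 19.2 and 18.8 CPM (siJunb) and 17.8 and 17.0 CPM (siH1f0). Itga1 read 6.98 and 10.2 CPM (siControl), 10.7 and 10.4 CPM (siJunb) and 12.1 and 11.2 CPM (siH1f0). The rest were Lama3, Lamb3, Itga9, Itga10, Itga11, Itgae, Itgax, Itgb2, Itgb4 and Itgb7, which had 4 to 150 counts per library.

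Summed over a class, alpha chains of laminin read 86.2 and 107 TPM (siControl), 111 and 109.8 TPM (siJunb) and 132 and 125 TPM (siH1f0). Lama5 made up 58.7% ± 0.799 of that sum in siControl, 61.1% ± 0.472 in siJunb and 55.8% ± 0.909 in siH1f0, and Lama4 39.6% ± 0.892, 37.8% ± 0.444 and 41.8% ± 0.736 (SD, n = 2 each). Lama2 held 1.37% ± 0.00880, 0.832% ± 0.102 and 2.10% ± 0.117 of it. Among integrin beta subunits, Itgb1 made up 93.7%, 94.3% and 93.8% of TPM in siControl, siJunb and siH1f0. With 2 libraries a group, the smallest two-sided p that an exact permutation test allows is 0.333, and the shares are given with no test.

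**Figure D4:**
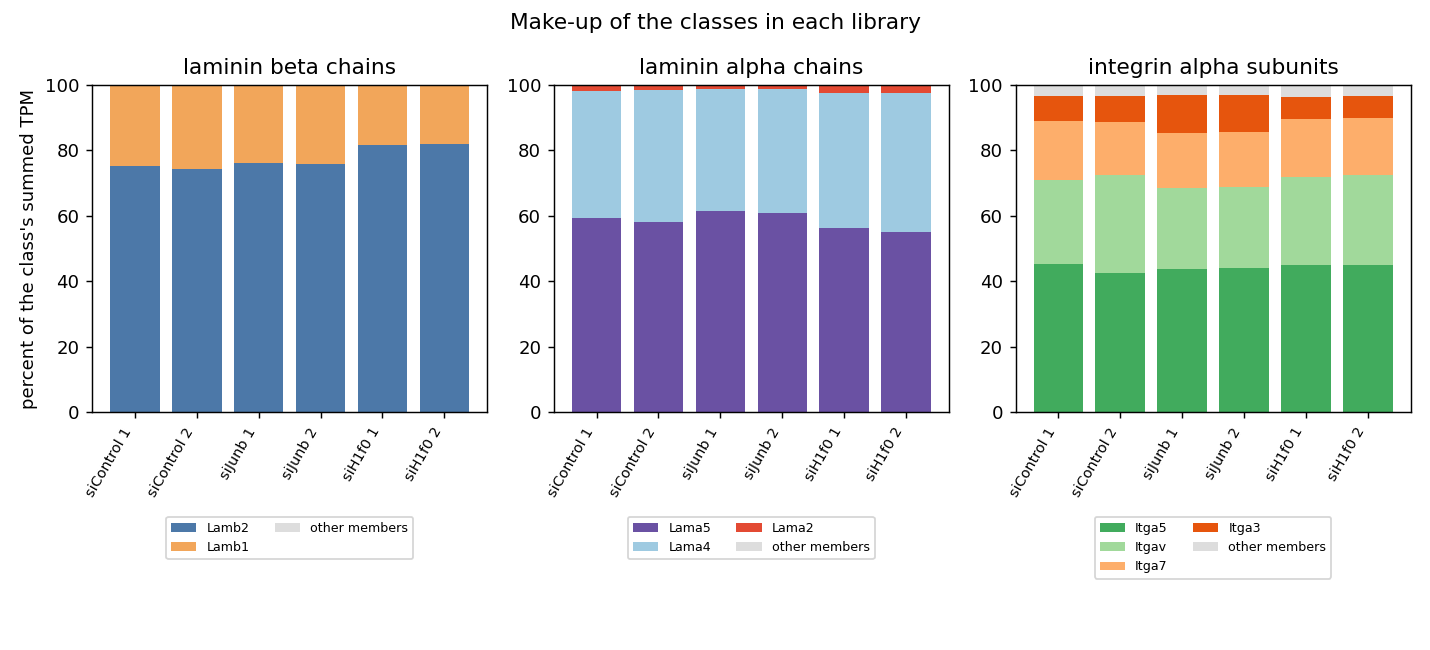
Share of each class's summed TPM (percent) in every library for laminin beta chains, laminin alpha chains and integrin alpha subunits. The Lamb1 part is smallest in both siH1f0 bars (18.2%) and the Itga3 part largest in both siJunb bars (11.7%).

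The 300-base windows around annotated start sites are shown for Itga3, whose siJunb call held in every alternative, and Lama2, whose siH1f0 calls did. The siRNA target of siJunb belongs to AP-1, and the windows were searched for TGANTCA, an AP-1 motif in which N is any base. Sequences are RefSeq windows of GRCm38.p6, 5′ to 3′ on the gene's strand, with a match to TGANTCA in capitals, searched on both strands. Itga3 has 2 annotated windows, upstream at chr11:95076665-95076964 (minus strand) and internal at chr11:95069149-95069448 (minus strand), and Lama2 has 1 at chr10:27616893-27617192 (minus strand).
Itga3 upstream: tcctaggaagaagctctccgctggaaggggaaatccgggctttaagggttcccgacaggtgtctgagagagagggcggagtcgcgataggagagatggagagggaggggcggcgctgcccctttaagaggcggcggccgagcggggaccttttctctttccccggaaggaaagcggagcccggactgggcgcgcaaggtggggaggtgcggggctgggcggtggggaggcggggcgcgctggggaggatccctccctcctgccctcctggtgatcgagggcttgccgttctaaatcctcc
Itga3 internal: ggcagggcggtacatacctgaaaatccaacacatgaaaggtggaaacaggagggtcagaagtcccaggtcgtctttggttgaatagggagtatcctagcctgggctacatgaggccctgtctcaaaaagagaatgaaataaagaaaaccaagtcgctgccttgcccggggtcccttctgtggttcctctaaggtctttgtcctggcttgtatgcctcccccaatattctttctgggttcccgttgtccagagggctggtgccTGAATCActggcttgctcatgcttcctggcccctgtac
Lama2: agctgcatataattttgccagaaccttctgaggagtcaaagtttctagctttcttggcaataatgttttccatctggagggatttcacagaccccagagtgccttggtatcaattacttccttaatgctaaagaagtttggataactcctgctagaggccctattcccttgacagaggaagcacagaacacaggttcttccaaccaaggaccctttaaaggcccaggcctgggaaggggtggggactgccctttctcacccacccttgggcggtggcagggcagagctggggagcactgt
The internal Itga3 window held TGAATCA 12 bases after its start site, and no match was found in the other 2 windows. Counts per gene do not show which start was used. Windows were found for 23 of the 37 members, 26 in all, and 3 of the 26 (11.5%) held the motif, those of Itga3, Itga9 and Itgax, against 7.81% of 32851 windows. At N, the match had A in Itga3, C in Itga9 and G in Itgax. A second motif, GGAATG of TEAD factors, was searched in the same windows. It was found in 3 of the 26 (11.5%), against 14.7% of 32851 windows. A match is a description of letters in the window.

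Other genes of the pathway were read from lists by role, to be set beside the share of all tested genes called, 16.5% in siJunb and 6.55% in siH1f0. Among 18 genes of basement membrane partners, 5 were called higher and 1 lower in siJunb (edgeR; median log2 0.04), and 2 were called in siH1f0, both lower (median -0.07). Nid2, a nidogen that bridges laminin and collagen IV, read 1690 and 1897 CPM (siControl), 1111 and 1115 CPM (siJunb) and 1483 and 1424 CPM (siH1f0). It fell by 0.65 ± 0.06 on the log2 scale in siJunb (SE; edgeR adjusted p = 0.000512) and by 0.32 ± 0.06 in siH1f0 (adjusted p = 0.0213). Its paralogue Nid1 moved the other way in siJunb, from 169 and 225 CPM to 306 and 308 CPM (log2 0.67 ± 0.11, SE; edgeR adjusted p = 0.00568). Tinagl1, a matrix protein that binds laminin and integrins, rose in siJunb (log2 0.50, adjusted p = 0.00152) and fell in siH1f0 (log2 -0.35, adjusted p = 0.0129). Col4a2, a collagen IV chain, rose in siJunb (log2 0.36, edgeR adjusted p = 0.00298).

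Non-integrin laminin receptors and the dystroglycan complex had 22 tested genes, 3 called higher and 4 lower in siJunb (edgeR; median log2 0.09), and 4 called in siH1f0, all higher (median 0.07). Over all tested genes 16.5% were called in siJunb and 6.55% in siH1f0, of which 2.27% were higher. Dag1, which encodes dystroglycan, the receptor that binds the laminin alpha chain's end domains, read 768 and 897 CPM (siControl), 1170 and 1148 CPM (siJunb) and 985 and 938 CPM (siH1f0). Its log2 change in siJunb was 0.51 ± 0.07 (SE; edgeR adjusted p = 0.00317). Sntb1, a syntrophin of the dystroglycan complex, rose in siJunb (log2 0.64, edgeR adjusted p = 0.00571). In siH1f0 the syndecans Sdc4 (log2 0.32) and Sdc2 (0.23) and sarcospan, Sspn (0.36), rose, with edgeR adjusted p = 0.00608, 0.0245 and 0.0251.

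Of 30 genes of integrin activation and the adhesion complex, 6 were called higher and 3 lower in siJunb (edgeR; median log2 0.05), and 2 were called in siH1f0, both lower (median 0.01). Of all tested genes 16.5% were called in siJunb, and the 6.67% of this list called in siH1f0 was near the 6.55% of all genes. The kinase gene Ptk2b (log2 0.37) and paxillin, Pxn (0.22), rose in siJunb and Rsu1, a PINCH-binding protein, fell (-0.26), with edgeR adjusted p = 0.00896, 0.0168 and 0.0101. In siH1f0 the tensin gene Tns3 fell from 149 and 166 CPM to 108 and 103 CPM (log2 -0.59, edgeR adjusted p = 0.00153), and beta-parvin, Parvb, fell by 0.35 (adjusted p = 0.0223). Of 11 inhibitors and membrane partners, 2 were called in siJunb, both higher, Cav1 (log2 0.53, edgeR adjusted p = 0.000919) and the integrin-associated protein gene Cd47 (0.33, adjusted p = 0.0395). In siH1f0 2 were called, both lower. Itgb1bp1, whose protein ICAP-1 binds the beta 1 tail and keeps talin off it, fell from 50.8 and 48.8 CPM to 32.6 and 32.2 CPM (log2 -0.63 ± 0.05, SE; edgeR adjusted p = 0.000383), and Slc3a2, the CD98 heavy chain, fell by 0.25 (adjusted p = 0.0308).

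Of 17 integrin ligand genes outside the laminins, 5 were called higher and 1 lower in siJunb (edgeR; median log2 0.10), and 2 higher and 4 lower in siH1f0 (median 0.10), where 16.5% and 6.55% of all tested genes were called. Vcam1, a ligand of alpha 4 and alpha 9 integrins, read 9.28 and 10.8 CPM (siControl), 18.4 and 20.5 CPM (siJunb) and 7.33 and 7.32 CPM (siH1f0). Its log2 change in siJunb was 0.99 ± 0.10 (SE; edgeR adjusted p = 0.000631), and that of the matrix glycoprotein Tnc was 0.63 ± 0.07 (adjusted p = 0.00132). In siH1f0 Col1a2, a collagen I chain, rose (log2 0.34, edgeR adjusted p = 0.00292), while Thbs1, thrombospondin 1, fell by 0.51 (adjusted p = 0.00576) and Ctgf by 0.21 (adjusted p = 0.0249).

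Between the knockdowns the same lists gave 1 higher and 3 lower of 18 basement membrane partners in siH1f0, 7 higher and 4 lower of 22 receptors, 5 and 5 of 30 adhesion genes, 1 and 4 of 11 inhibitors and partners, and 2 and 5 of 17 ligands (edgeR). The share of all tested genes called between the knockdowns was 25.9%, and that of the basement membrane partners, 22.2%, was below it. Vcam1 differed by -1.46 on the log2 scale (edgeR adjusted p = 4.70e-05). The peroxidasin gene Pxdn (-0.38), whose product cross-links collagen IV, the ligand gene Svep1 (-0.92), Dok1 (-0.21) and the tetraspanin gene Cd151 (-0.15) were lower in siH1f0, and the tetraspanin gene Cd9 (0.18) was higher, with edgeR adjusted p = 0.00565, 0.000390, 0.0344, 0.0373 and 0.0373. Leaving out 1 siJunb or siH1f0 library ended the calls for Pxdn, Dok1, Cd151 and Cd9 in at least 1 case (adjusted p up to 0.287). Against siControl the calls for Nid2, Cav1, Tinagl1, Vcam1 and Tnc in siJunb and for Itgb1bp1 and Tns3 in siH1f0 held without any 1 library. Those of Dag1 and Col4a2 in siJunb were lost without siJunb 1 (adjusted p = 0.0508 and 0.0603), and the others named were lost without at least 1 siJunb or siH1f0 library (adjusted p up to 0.279).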

How the data were processed

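Poly(A) RNA was sequenced from 6 libraries, 2 each for siControl, siJunb and siH1f0, grouped by the labels. The authors deposited raw read counts, 1 row per gene symbol, made with HISAT2, Subread and featureCounts on mm10, per the submitters' processing notes; versions, annotation, strand setting and the handling of reads with several matches were not given in the sources used here. The deposited table also gives a gene length in bases, another unit, used for TPM. All 6 sample columns were used.

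The counts were fitted with edgeR 4.0.16 (R 4.3.3): filterByExpr left 13427 of 24516 genes, TMM factors ran from 0.979 to 1.02, and its quasi-likelihood test used all 6 libraries with group as factor (3 residual degrees of freedom). Calls needed an adjusted p under 0.05 (Benjamini-Hochberg over all genes tested). The method was tested on simulated data in which all groups shared the same spread per gene, so a spread that differs between groups was not covered. CPM scale counts by library total, and TPM also by gene length. Coordinates are from RefSeq GRCm38.p6. Exon overlaps are percentages of the exon bases in the GENCODE annotation, which differ from the deposited gene lengths (for Lama2, 16338 against 9713 bases). Whether the shared bases were among those counted is not known.

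The members and the lists were chosen with earlier results of these data known, so no list was tested. Members called in a comparison, or among the 5 laminin chains and 8 integrin subunits with the highest TPM, are given in every library; from each list up to 3 called genes with the smallest p per comparison are named, or all when 5 or fewer were called. Alternatives tried were DESeq2 1.42.0 and limma-voom (limma 3.58.1), scaling by RLE or by total counts, a filter at a mean of 5 CPM or none, a fit of only the 4 libraries compared, a replicate block, and omission of each library in turn, where the lone sample left in a group takes its spread from the remaining groups. Some genes that met the rule for named genes are counted but not reported here.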

Additional observations from a re-analysis of the deposited data

How the results depend on the processing

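Of 25 called member changes, 4 held in every alternative that gave a value, those of Itga3 (siJunb against siControl and siH1f0 against siJunb) and Lama2 (siH1f0 against either group); 21 were lost in at least 1 and 0 reversed. Member calls were lost when a siH1f0 or siJunb library was left out, but not when a siControl library was. Each such fit has fewer samples and takes the spread of the lone sample's group from the others. The siControl pair was wider apart for Itgav (CPM SD 63.6, against 5.66 in siJunb and 1.73 in siH1f0). So it was for Lama4 (12.4, 0.441 and 1.69) and Lamc1 (66.5, 3.31 and 28.1), but not for Itga5 (0.799, 6.50 and 7.88). The part of this spread in the calls kept or lost was not tested. With only the 4 libraries compared, genes called were 1094 (siJunb), 325 (siH1f0) and 6416 (siH1f0 against siJunb), and members were 2 higher and 2 lower for siJunb, 2 higher and 0 lower for siH1f0 (edgeR), and 8 lower between knockdowns. With no count filter, 1921 genes were called for siH1f0, and 8 members were higher for siJunb and 8 for siH1f0. With a mean of at least 5 CPM, fewer genes were tested, and members were 3 higher and 2 lower for siJunb, 3 higher for siH1f0 and 2 lower between knockdowns. Leaving out 1 library gave 352 to 5521 genes called for siJunb, 116 to 4932 for siH1f0 and 1304 to 6435 between knockdowns. Members then were 1 to 13 higher and 0 to 5 lower for siJunb, 1 to 10 higher and 0 to 4 lower for siH1f0, and 1 to 7 higher and 1 to 8 lower between knockdowns. Uncalled changes near 0 crossed it: Itga2b in siH1f0 was 0.00724 with total counts only, 0.000706 with DESeq2 and 0.00155 with the replicate block, and with 1 library left out -0.23 to 0.20; Itgb5 in siH1f0 was -0.0917 to 0.0531, Lama5 between knockdowns -0.0257 to 0.0769, and Lamb1 in siJunb -0.0526 to 0.0377. With total counts only, the calls for siJunb split into 884 higher and 1369 lower (1159 and 1050 with TMM), and between knockdowns into 2222 and 1340 (1637 and 1847). Deviations of same-numbered libraries from their group means were nearly uncorrelated across genes (r = 0.05, -0.04 and 0.06). With 1 such contrast per group, this cannot show whether the numbers pair the libraries. With the replicate block, 550 genes were called for siH1f0 and 3 members were higher for siJunb. The block lost 6 of the 25 member calls. Without gene length, 44 of 48 class shares moved by more than the spread between replicates.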
